A study of Mus musculus with 21 samples.

Results

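The genes described here are 10 genes of the ATF4 branch of the integrated stress response: Atf4 itself, the stress regulators Ddit3, Trib3, Chac1 and Sesn2, the amino acid enzymes Asns, Psat1, Phgdh and Shmt2, and the cystine transporter Slc7a11. They were chosen by symbol and not by their values. The count tables held 11 rows with these symbols among 31053 genes, because 2 Ensembl loci carry the symbol Ddit3. Of these rows 9 passed the filter on low counts and were tested. The rows that were not tested were Slc7a11 and the second Ddit3 locus (ENSMUSG00000116429), which had 0 counts in all 21 libraries.

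The libraries are mRNA sequencing of E14Tg2a, male embryonic stem cells of a mouse with 129 background, 1 of whose Rex1 alleles holds the coding sequence of a short-lived green fluorescent protein (GFPd2). The labels placed the 21 libraries in 7 groups of 3 replicates: 2i+LIF PO, 2i+LIF LP, CH+LIF LP, LIF LP, 2i+LIF HP, CH+LIF HP and LIF HP. Per the labels' protocols, all cells were first kept in NDiff227 medium with CHIR99021 (CH), an inhibitor of GSK3, and PD0325901 (PD), an inhibitor of MEK. CH, PD and the cytokine LIF were then given and withdrawn by turns at passages, in a text that is the same for all groups. The series named zero passage, 1 month and 2 months of culture. PO was read as zero passage since it occurs in 2i+LIF alone, and no length of culture was assigned to LP or HP. The labels did not say whether replicates were separate cultures, so p-values here measure the spread between these libraries, which may be technical.

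ATF4 is a transcription factor made in larger amount when kinases that sense amino acid shortage, unfolded protein, haem shortage or double-stranded RNA phosphorylate the translation factor eIF2. Short reading frames ahead of the coding sequence let ribosomes reach the Atf4 start under these conditions, so the Atf4 mRNA level is not a measure of ATF4 protein or activity. With partners of the C/EBP family, ATF4 binds composite elements in genes of amino acid synthesis and import, redox defence and cell death. Mouse embryonic stem cells divide rapidly and depend on amino acid supply, threonine among them.

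A common core of that composite element, TGATGNAA, was searched on both strands in the RefSeq promoters of GRCm38.p6, each running from 250 bases before to 50 bases after a gene's start. Promoters were found for all 10 genes, and 4 of them held a match: Chac1, Asns, Trib3 and Slc7a11. Among all 32851 promoters of the same length 1304 held one (3.97%). These 4 windows are shown because they carry these matches, in capitals, on the strand of the gene. The Chac1 window (chr2:119351023-119351082, plus strand) begins its match 193 bases before the start. For Asns (chr6:7693214-7693243, minus strand) the match lay 23 bases before the RefSeq start, inside an exon of the GENCODE gene. The Trib3 window (chr2:152344028-152344057, minus strand) held its match just after the RefSeq start, and only the end of this window reached into the GENCODE exon, outside the match. That of Slc7a11 (chr3:50443646-50443705, minus strand) held the match in capitals 66 bases before the start and a second, on the opposite strand and in lower case here, 47 bases before it.
Chac1: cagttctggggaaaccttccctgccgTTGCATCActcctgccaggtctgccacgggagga
Asns: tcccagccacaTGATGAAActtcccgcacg
Trib3: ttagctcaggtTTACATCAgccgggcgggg
Slc7a11: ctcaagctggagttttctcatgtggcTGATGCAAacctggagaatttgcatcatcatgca
A match is a description of the letters and not of binding. The windows of Atf4, Ddit3, Psat1, Phgdh, Sesn2 and Shmt2 did not hold these letters, from which nothing is drawn about ATF4 at those genes.

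Libraries held 1132126 to 3783043 counts in genes. Replicates differed by more than sampling noise in every pair (chi-square per degree of freedom at least 5.21), and each library was counted as 1 replicate. A pair of libraries stood apart: in 2i+LIF PO replicate 1, 39.1% of gene counts were mitochondrial, and in 2i+LIF LP replicate 1, Gm42418, which lies over ribosomal RNA sequence, took 31.7%. The file names of the PO libraries carry another number than those of the other 18 libraries. It was read, from the names alone, as the number of a sequencing run. PO and run, so read, cannot be told apart, and no within-run value of a difference from PO exists. Pluripotency markers were present in every library, Sox2 between 373 and 1413 CPM (gene counts scaled to a common library size by TMM) and Nanog between 99.7 and 579 CPM. The 5 markers of primitive endoderm summed to at most 14.2 CPM, with 3 counts of Sox17 and 48 of Pdgfra in all libraries together. Those of fibroblasts, 6 genes, summed to at most 36.9 CPM, with 296 counts of Col1a1, 279 of Thy1 and 2 of Col3a1. The ERK target Dusp6, which MEK inhibition lowers, went against 2 group labels. Its mean was 0.411 ± 0.711 CPM (SD, n = 3) over the LIF HP libraries, a label that names no MEK inhibitor. In those labelled 2i+LIF LP its level was 0.701 CPM in replicate 1 but 34.4 and 26.3 CPM in replicates 2 and 3. The mean in CH+LIF HP was 37.1 ± 5.75 CPM. Fits without the 2 libraries that stood apart leave out this replicate 1, so 2i+LIF LP rests there on replicates 2 and 3 alone. Media are therefore given here as labelled, and every difference between media rests on these labels. In these bulk samples fewer cells that express a gene and less RNA per cell cannot be told apart.

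Across the 7 groups, 6 of the 9 tested genes differed at an adjusted p under 0.05 in edgeR's quasi-likelihood test with Benjamini-Hochberg adjustment: Ddit3, Trib3, Asns, Atf4, Psat1 and Sesn2. Among all 10643 tested genes 22.6% did. Chac1 (adjusted p = 0.141), Shmt2 (0.297) and Phgdh (0.348) did not pass. Without the 2 libraries that stood apart Chac1 (0.0486) and Shmt2 (0.0193) passed as well, for 8 of 9, in a fit that called 3917 of all genes in place of 2406. Limma-voom with sample quality weights called all 9, Phgdh among them, and 5427 of all genes. The genes did not share 1 order of groups. Ddit3 separated the HP libraries from all others, Trib3 separated the PO libraries from all others, and Asns separated the LIF LP libraries from all others. The share of all tested genes that did so is not given here. The nearest library was 2i+LIF LP replicate 1, which stood apart, for Ddit3 (28.0 against 31.2 CPM) and Trib3 (10.5 against 9.15 CPM).

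**Figure D1:**
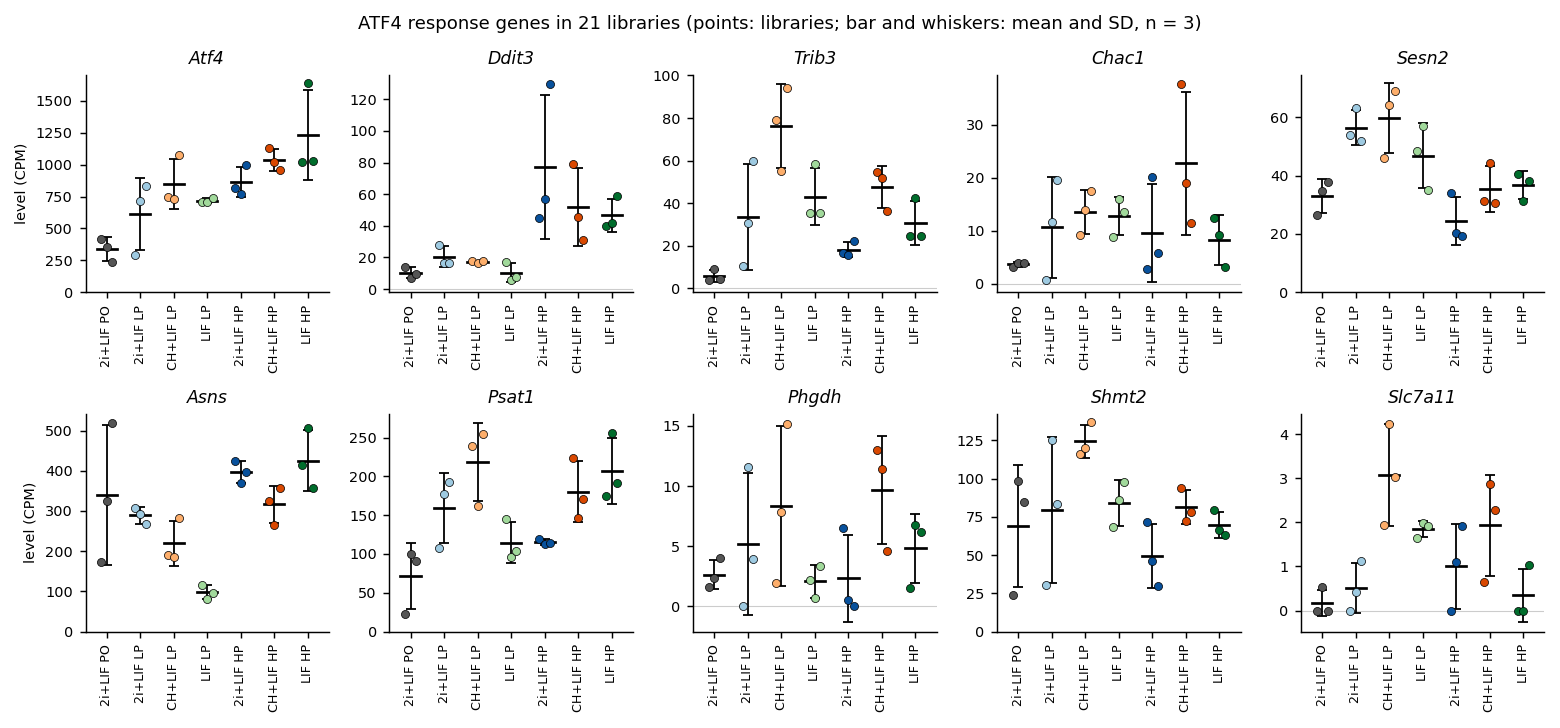
Level of each of the 10 genes in CPM (vertical axes, each with its own range) in the 21 libraries, by group (horizontal axes). Points are libraries, and the bar and whiskers give the mean and SD of 3 replicates. Ddit3 lies between 31.2 and 129 CPM in the 9 HP libraries and at 28 CPM or less in the other 12, Trib3 is at 9.15 CPM or less in PO alone, and Asns is lowest in LIF LP.

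Atf4 (ENSMUSG00000042406, chromosome 15, 80255184 to 80257541, plus strand, GRCm38 as for all positions) encodes the transcription factor that gives the response its name, and had 420 to 2659 counts per library. In 2i+LIF PO its level was 419, 356 and 239 CPM in replicates 1, 2 and 3. At LP it was 295, 717 and 831 CPM in 2i+LIF, 745, 729 and 1076 CPM in CH+LIF, and 707, 709.8 and 738 CPM in LIF. The PO libraries lay below those of CH+LIF LP and LIF LP, and replicate 1 of 2i+LIF LP, a library that stood apart, lay within the PO range. At HP, Atf4 had 820.3, 770.2 and 998 CPM in 2i+LIF, 1128, 1019 and 956 CPM in CH+LIF, and 1022, 1638 and 1030.3 CPM in LIF. All 9 HP libraries lay above all 3 PO libraries. In order of mean level the groups ran LIF HP, CH+LIF HP, 2i+LIF HP, CH+LIF LP, LIF LP, 2i+LIF LP and 2i+LIF PO, and every neighbouring pair in that order overlapped.

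Atf4 rose against PO in 4 of 6 groups. Its log2 fold change was 1.33 ± 0.37 (SE) in CH+LIF LP (adjusted p = 0.0262), 1.35 ± 0.37 in 2i+LIF HP (adjusted p = 0.0197), 1.62 ± 0.37 in CH+LIF HP (adjusted p = 0.0121) and 1.86 ± 0.37 in LIF HP (adjusted p = 0.00281), the last a 3.64-fold difference. In LIF LP it was 1.09 ± 0.37 (adjusted p = 0.0525), and in 2i+LIF LP 0.86 ± 0.37 (adjusted p = 0.162). With the 2 libraries that stood apart left out, 2i+LIF LP gave 1.38 ± 0.35 (adjusted p = 0.0122) and LIF LP 1.27 ± 0.32 (adjusted p = 0.00582). The calls in CH+LIF LP, 2i+LIF HP and CH+LIF HP were lost without PO replicate 3, the lowest PO library, where their adjusted p was 0.103, 0.081 and 0.0599, and the call over 7 groups was lost with them (0.0618). The omission of PO replicate 2 or CH+LIF LP replicate 2 or 3 also ended the first call (0.0507 to 0.0986), that of 2i+LIF HP replicate 3 the second (0.0892) and that of CH+LIF HP replicate 1 the third (0.0504). A fit of only the groups compared ended the calls in CH+LIF LP (0.103) and 2i+LIF HP (0.142). None of the 9 comparisons of media or of HP with LP gave a call for Atf4. The largest of them was LIF HP against LIF LP, where all 3 HP libraries lay above all 3 LP libraries and the log2 fold change was 0.78 ± 0.36 (adjusted p = 0.174); without the 2 libraries that stood apart it was 0.76 ± 0.28 and passed (adjusted p = 0.0487).

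Ddit3 (ENSMUSG00000025408, chromosome 10, 127290774 to 127296288, plus strand) encodes CHOP, a C/EBP-family factor linked to cell death under lasting stress. Its exons overlap those of Mars on the other strand, and the strand setting of the counting is not given in the sources used here, so reads of the pair cannot be told apart there. Mars had 46.4 to 160.3 CPM. The level of Ddit3 was 14.2, 7.06 and 9.72 CPM in 2i+LIF PO. At LP it was 28, 16.4 and 16.8 CPM in 2i+LIF, 17.4, 16.3 and 17.5 CPM in CH+LIF, and 17.1, 5.98 and 7.7 CPM in LIF. At HP it was 45.1, 56.7 and 129 CPM in 2i+LIF, 79.2, 45.8 and 31.2 CPM in CH+LIF, and 39.7, 41.9 and 58.7 CPM in LIF. The 9 HP libraries did not overlap the other 12, and 2i+LIF HP replicate 3 was the highest library. The mean order ran 2i+LIF HP, CH+LIF HP and LIF HP, which overlapped one another, then, after a gap, 2i+LIF LP and CH+LIF LP, which overlapped, and last 2i+LIF PO and LIF LP.

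In the libraries labelled 2i+LIF, Ddit3 rose from LP to HP by a log2 fold change of 1.91 ± 0.45, or 3.76-fold (adjusted p = 0.0150), and in those labelled LIF by 2.17 ± 0.47, or 4.49-fold (adjusted p = 0.00516). In CH+LIF the value was 1.61 ± 0.45, with no overlap between the groups, and did not pass the test (adjusted p = 0.411). That comparison called 0.0094% of all tested genes, against 3.67% for 2i+LIF and 9.96% for LIF. The change in CH+LIF was not shown to differ from the others: the difference of log2 fold changes was -0.31 ± 0.63 for CH+LIF less 2i+LIF (adjusted p = 0.966) and 0.56 ± 0.64 for LIF less CH+LIF (adjusted p = 0.777). The call in 2i+LIF was lost without 2i+LIF HP replicate 3 (1.30 ± 0.45, adjusted p = 0.163), 2i+LIF LP replicate 2 (0.0672) or 2i+LIF LP replicate 3 (0.0588) and with only the groups compared in the fit (0.195), whereas the call in LIF held under all 29 alternative settings. Against PO, Ddit3 rose in the 3 HP groups, with log2 fold changes of 2.90 ± 0.47 in 2i+LIF HP (adjusted p = 0.000242), 2.35 ± 0.46 in CH+LIF HP (adjusted p = 0.00362) and 2.19 ± 0.46 in LIF HP (adjusted p = 0.00397). The value in 2i+LIF HP was 2.32 ± 0.45 without its replicate 3 (adjusted p = 0.00394). In the LP groups it was 0.99 ± 0.46, 0.75 ± 0.46 and 0.02 ± 0.47 in 2i+LIF, CH+LIF and LIF, and none passed.

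Trib3 (ENSMUSG00000032715, chromosome 2, 152337422 to 152344032, minus strand) encodes a pseudokinase that is induced by ATF4 and CHOP and feeds back on both. Its level was 3.69, 9.15 and 4.49 CPM in 2i+LIF PO. At LP it had 10.5, 30.6 and 59.8 CPM in 2i+LIF, 79.0, 55.1 and 94.2 CPM in CH+LIF, and 35.3, 58.4 and 35.6 CPM in LIF. At HP it had 16.7, 15.8 and 22.0 CPM in 2i+LIF, 54.5, 52.0 and 36.6 CPM in CH+LIF, and 24.7, 42.5 and 24.7 CPM in LIF. All 18 other libraries lay above the 3 PO libraries. In order of the mean, CH+LIF LP stood above CH+LIF HP without overlap, then CH+LIF HP, LIF LP, 2i+LIF LP and LIF HP overlapped in turn, and 2i+LIF HP and 2i+LIF PO each lay apart from the group before.

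Trib3 rose against PO in all 6 groups. The log2 fold change was 2.50 ± 0.48 in 2i+LIF LP (adjusted p = 0.00455), 3.67 ± 0.50 in CH+LIF LP, a 12.7-fold difference (adjusted p = 7.53e-05), and 2.84 ± 0.49 in LIF LP (adjusted p = 0.000466). It was 1.59 ± 0.49 in 2i+LIF HP (adjusted p = 0.0377), 3.00 ± 0.49 in CH+LIF HP (adjusted p = 0.000742) and 2.36 ± 0.49 in LIF HP (adjusted p = 0.00355). The value in 2i+LIF LP was 1.83 ± 0.47 without its replicate 3 (adjusted p = 0.0348). With only the groups compared in the fit, the adjusted p was 0.276 in 2i+LIF LP and 0.13 in 2i+LIF HP. The call in 2i+LIF HP was also lost without PO replicate 1 or 3 or 2i+LIF HP replicate 2 or 3, with adjusted p up to 0.149. From LP to HP, Trib3 had log2 fold changes opposite in sign to those of Ddit3: -0.91 ± 0.46 in 2i+LIF, -0.67 ± 0.44 in CH+LIF and -0.48 ± 0.45 in LIF, none of which passed. The value in 2i+LIF without the 2 libraries that stood apart was -1.31 ± 0.39 and passed (adjusted p = 0.0414). At HP the 2i+LIF libraries lay below all CH+LIF libraries, a log2 difference of 1.40 ± 0.46 that did not pass (adjusted p = 0.143), and without those 2 libraries it was 1.40 ± 0.36 and passed (adjusted p = 0.0184).

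**Figure D2:**
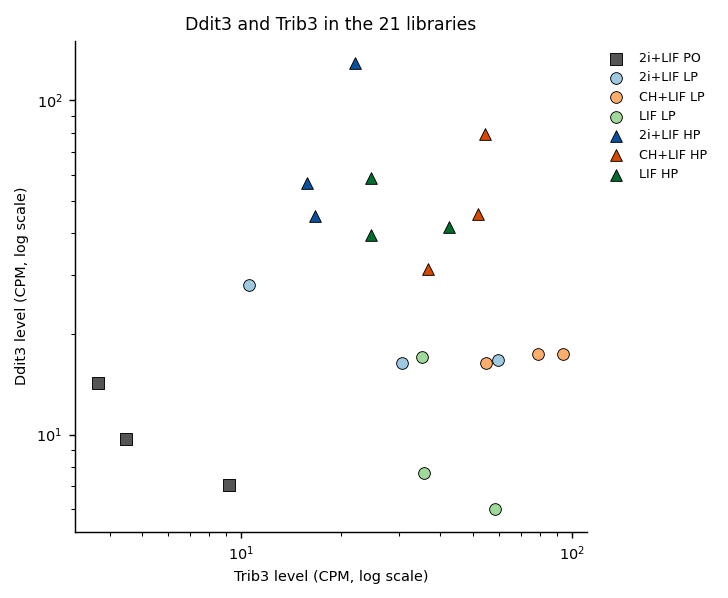
Ddit3 level (vertical axis, CPM, log scale) against Trib3 level (horizontal axis, CPM, log scale) in the 21 libraries, with squares for PO, circles for LP and triangles for HP. The HP libraries lie above 31 CPM of Ddit3 at a Trib3 level between 15.8 and 54.5 CPM, the LP libraries at 28 CPM of Ddit3 or less with Trib3 up to 94.2 CPM, and the PO libraries are low in both.

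Chac1 (ENSMUSG00000027313, chromosome 2, 119351229 to 119354381, plus strand) encodes an enzyme that breaks down glutathione. It had 1 to 58 counts per library, so that counting error is large. Its level was 3.17, 3.92 and 3.99 CPM in 2i+LIF PO. The 2i+LIF LP libraries had 0.701, 11.6 and 19.6 CPM, and those of CH+LIF HP had 37.6, 19.1 and 11.4 CPM. The CH+LIF HP libraries lay above the PO libraries, while those of 2i+LIF LP surrounded them. CH+LIF LP ranged from 9.2 to 17.5 CPM, LIF LP from 8.81 to 15.9 CPM, 2i+LIF HP from 2.79 to 20.2 CPM and LIF HP from 3.09 to 12.4 CPM. Of 15 comparisons only CH+LIF HP against PO was called, with a log2 fold change of 2.59 ± 0.72 (adjusted p = 0.0325). That call was lost on leaving out any 1 of the 3 PO libraries or CH+LIF HP replicate 1 or 2, with adjusted p of 0.0607 to 0.192. In the mean order, from CH+LIF HP through CH+LIF LP, LIF LP, 2i+LIF LP, 2i+LIF HP and LIF HP to PO, every neighbouring pair overlapped.

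Sesn2 (ENSMUSG00000028893, chromosome 4, 132492032 to 132510501, minus strand) encodes a sestrin, a stress-induced leucine sensor that restrains the growth kinase complex mTORC1. It had 26.4, 34.8 and 37.9 CPM in 2i+LIF PO. In the same medium it had 54, 63.3 and 52.0 CPM at LP, and 33.9, 20.2 and 19.2 CPM at HP. The 2i+LIF LP libraries lay above both other 2i+LIF groups. Means of the other groups were 59.8 ± 12.2 CPM in CH+LIF LP, 46.9 ± 11.1 CPM in LIF LP, 35.3 ± 7.84 CPM in CH+LIF HP and 36.7 ± 4.8 CPM in LIF HP (SD, n = 3 each), and neighbours in the order of the 7 means overlapped. Sesn2 fell from LP to HP in the libraries labelled 2i+LIF, with a log2 fold change of -1.19 ± 0.33, a 2.28-fold lower level (adjusted p = 0.0414). This call was lost in 12 of 29 alternatives, among them no filter on low counts (adjusted p = 0.109) and the omission of any single library of 2i+LIF LP (0.0576 to 0.115) or of 2i+LIF HP replicate 2 (0.201) or 3 (0.168). It was lost by a small margin (0.0516 to 0.0579) without PO replicate 3, CH+LIF LP replicate 2, LIF LP replicate 1, CH+LIF HP replicate 1 or LIF HP replicate 3. In CH+LIF the change was -0.75 ± 0.33 and in LIF -0.35 ± 0.33, neither of which passed.

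Asns (ENSMUSG00000029752, chromosome 6, 7675169 to 7693254, minus strand) encodes asparagine synthetase, a much used reporter of the amino acid response. Its level was 172, 325 and 519.5 CPM in 2i+LIF PO, the widest spread of the 7 groups, and 308, 292 and 267 CPM in 2i+LIF LP. CH+LIF LP had 190.4, 185 and 283 CPM, and LIF LP had 116, 81.0 and 95.7 CPM. All 3 LIF LP libraries lay below the other 18. At HP, Asns had 424, 369 and 397 CPM in 2i+LIF, 324, 266 and 358 CPM in CH+LIF, and 414, 506 and 356 CPM in LIF. The order of means was LIF HP, 2i+LIF HP, 2i+LIF PO, CH+LIF HP, 2i+LIF LP, CH+LIF LP and LIF LP, and each neighbouring pair overlapped but the last.

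Asns fell in the libraries labelled LIF LP against those labelled 2i+LIF LP, by a log2 fold change of -1.56 ± 0.35, a 2.96-fold lower level (adjusted p = 0.0323), in a comparison that called 0.489% of all tested genes. Of 29 alternative settings 9 lost this call, among them a fit of only the groups compared (adjusted p = 0.173) and the omission of LIF LP replicate 1, 2 or 3 (0.0928, 0.292 and 0.169) or of 2i+LIF LP replicate 1 or 2 (0.0863 and 0.0693). The omission of CH+LIF LP replicate 2 or CH+LIF HP replicate 1 or 2 left it at 0.0504 to 0.0536. Of the summed markers of cell states, those of mesendoderm alone did not overlap between LIF LP (3.32 to 11.6 CPM) and 2i+LIF LP (12.3 to 35.1 CPM). The part of these markers in the Asns difference was not tested. Asns was -1.80 ± 0.35 in LIF LP against PO (adjusted p = 0.00161), the only one of the 54 values against PO called lower in this fit. Asns in CH+LIF LP was also called lower than PO without the 2 libraries that stood apart (-0.97 ± 0.30, adjusted p = 0.0273) and by limma-voom with sample quality weights (-0.998 ± 0.26, adjusted p = 0.00681). From LIF LP to LIF HP it rose by 2.12 ± 0.36, or 4.35-fold (adjusted p = 0.000558). The calls in LIF LP against PO and in LIF HP against LIF LP held under all 29 alternatives. The change from LP to HP was 0.46 ± 0.34 in 2i+LIF and 0.53 ± 0.34 in CH+LIF, neither of which passed. The difference between media in that change was 1.66 ± 0.49 for LIF less 2i+LIF (adjusted p = 0.159) and 1.59 ± 0.49 for LIF less CH+LIF (adjusted p = 0.183), and neither was called. Both were called without the 2 libraries that stood apart, at 1.59 ± 0.40 (adjusted p = 0.0387) and 1.57 ± 0.38 (adjusted p = 0.0219). In the same LIF LP libraries Trib3 was called higher than in PO, by 2.84 on the log2 scale, while the value of Atf4, 1.09, did not pass.

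Psat1 (ENSMUSG00000024640, chromosome 19, 15904678 to 15947337, minus strand) encodes an aminotransferase of serine synthesis. Its level was 22.2, 99.9 and 91.2 CPM in 2i+LIF PO. It was 239, 162 and 255 CPM in CH+LIF LP, and 175, 256 and 192 CPM in LIF HP. PO lay below both groups without overlap, and PO replicate 1, which stood apart, was the lowest library. The mean was 159 ± 45.3 CPM in 2i+LIF LP, 115 ± 26.4 CPM in LIF LP, 115 ± 3.52 CPM at HP in 2i+LIF and 180.4 ± 39.7 CPM in CH+LIF HP (SD, n = 3 each). Psat1 rose against PO in CH+LIF LP (log2 fold change 1.61 ± 0.40, adjusted p = 0.0139), CH+LIF HP (1.33 ± 0.40, adjusted p = 0.0463) and LIF HP (1.53 ± 0.40, adjusted p = 0.0146). Without the 2 libraries that stood apart these values were 1.17 ± 0.30, 0.91 ± 0.30 and 1.11 ± 0.30, and all 3 passed (adjusted p = 0.0107, 0.0473 and 0.016). The call in CH+LIF HP was lost in 18 of 29 alternatives, 17 of them the omission of 1 library, with adjusted p up to 0.195. That in CH+LIF LP was lost without CH+LIF LP replicate 1 (0.0507) or 3 (0.0509), and that in LIF HP without PO replicate 1 (0.0531) or LIF HP replicate 2 (0.08). Both were also lost with only the groups compared in the fit, at 0.0869 and 0.0815. Psat1 passed in 3 further tests without the 2 libraries that stood apart: LIF HP against LIF LP (0.84 ± 0.27, adjusted p = 0.0236), LIF HP against 2i+LIF HP (0.83 ± 0.27, adjusted p = 0.0373) and the interaction of LIF less 2i+LIF for HP against LP (1.51 ± 0.39, adjusted p = 0.0453).

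Phgdh (ENSMUSG00000053398, chromosome 3, 98313170 to 98339990, minus strand) encodes the first enzyme of serine synthesis. It had 0 to 27 counts per library. Of its distinct stretches of 50 bases 47.8% occur in 23 other genes, most of them pseudogenes, so its count is uncertain. Group means ran from 2.08 ± 1.36 CPM in LIF LP to 9.66 ± 4.48 CPM in CH+LIF HP, and all neighbours in the order overlapped. No comparison of pairs called it with edgeR. Shmt2 (ENSMUSG00000025403, chromosome 10, 127517123 to 127522444, minus strand) encodes the mitochondrial enzyme that moves a one-carbon unit from serine to folate, and overlaps exons of Ndufa4l2 on the other strand, which had at most 21 counts per library. Its level was 23.7, 98.3 and 84.8 CPM in 2i+LIF PO. It was 116, 119.8 and 137 CPM in CH+LIF LP, and 71.6, 46.3 and 29.7 CPM in 2i+LIF HP. CH+LIF LP lay above PO and above LIF LP, the next group in the order, without overlap, whereas the remaining neighbours overlapped. Shmt2 passed no test, its value in CH+LIF LP against PO being 0.84 ± 0.44 (adjusted p = 0.241). Without the 2 libraries that stood apart it was -1.06 ± 0.31 in 2i+LIF HP against 2i+LIF LP (adjusted p = 0.0411) and -0.87 ± 0.31 in 2i+LIF HP against PO (adjusted p = 0.0481).

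Slc7a11 (ENSMUSG00000027737, chromosome 3, 49892526 to 50443614, minus strand) encodes the xCT subunit that brings cystine into the cell in exchange for glutamate. It had 45 counts in all 21 libraries. Counts in replicates 1, 2 and 3 were 0, 2 and 0 in 2i+LIF PO, 0, 1 and 2 in 2i+LIF LP, 4, 7 and 4 in CH+LIF LP, and 3, 3 and 4 in LIF LP. At HP they were 0, 2 and 2 in 2i+LIF, 1, 6 and 3 in CH+LIF, and 0, 0 and 1 in LIF. The CH+LIF LP libraries, at 1.94 to 4.24 CPM, lay above those of PO (up to 0.523 CPM), 2i+LIF LP (up to 1.12 CPM), 2i+LIF HP (up to 1.92 CPM) and LIF HP (up to 1.03 CPM) without overlap, and overlapped those of LIF LP and CH+LIF HP. Slc7a11 did not pass the filter on low counts and so has no test beside the other genes. With no such filter none of its 15 comparisons was called, the smallest adjusted p being 0.162 for CH+LIF LP against PO. A count of 0 in a library allows up to 3 counts, a limit that covers counting error only.

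The 15 comparisons of pairs of groups gave 23 calls for the 9 tested genes, of 135 values. Among media at LP, CH+LIF against 2i+LIF called 0 of 9 (0% of all tested genes), LIF against 2i+LIF called Asns alone, and LIF against CH+LIF called 0 of 9 (0.047%). For these 3 comparisons the number of the 9 genes with an unadjusted p under 0.05 was 1, 1 and 2. Counts at an unadjusted p, here and below, have no share of all tested genes beside them, so nothing is drawn from them. Among media at HP, CH+LIF against 2i+LIF (2.02%), LIF against 2i+LIF (3.78%) and LIF against CH+LIF (1.47%) each called 0 of 9, with 1, 1 and 0 genes at an unadjusted p under 0.05. The joint tests over 3 media likewise called 0 of 9 at LP (0.376%) and 0 of 9 at HP (5.12%). DESeq2 called 1 of 9, Asns, among media at LP, where it called 186 of all genes and edgeR 40. Between HP and LP, 2i+LIF called 2 of 9, Ddit3 higher and Sesn2 lower, LIF called 2 of 9, Ddit3 and Asns, both higher, and CH+LIF called 0 of 9, with 2 at an unadjusted p under 0.05. Without the 2 libraries that stood apart, each of the first 2 comparisons called 4 of 9, in a fit that also called more of all genes: 627 in place of 391 for 2i+LIF and 2370 in place of 1060 for LIF. Summed markers of other cell states are given beside these changes. In LIF, neural ectoderm markers summed to 189 to 208 CPM at LP and 88.1 to 144.8 CPM at HP without overlap. Primed epiblast markers (57.8 to 71.7 and 20.6 to 23.4 CPM) and fibroblast markers (11.1 to 36.9 and 7.39 to 9.79 CPM) did not overlap there either. Naive markers (1892 to 2452 and 1840 to 2279 CPM) and mesendoderm markers (3.32 to 11.6 and 9.27 to 25.9 CPM) overlapped in LIF. In CH+LIF, which called 0 of 9, neural ectoderm markers (125.0 to 138.0 and 57.2 to 59.7 CPM) also lay lower at HP without overlap. So did primed epiblast markers there (83.5 to 147.3 and 55.8 to 74.6 CPM). In 2i+LIF, primed epiblast markers summed to 61.0 to 102 CPM at LP and 18.2 to 51.1 CPM at HP without overlap, while neural ectoderm markers (110 to 253 and 34.5 to 156.2 CPM), mesendoderm markers (12.3 to 35.1 and 24.9 to 55.1 CPM) and naive markers (1953 to 3590 and 1397 to 2029 CPM) overlapped. Library composition also differed between LIF LP and LIF HP without overlap: alignments that were not unique took 23.1 to 25.6% and 30.3 to 35.4% of entries, those in no gene 17.0 to 24.6% and 8.46 to 16.7%, and those in more than 1 gene 0.303 to 0.384% and 0.549 to 0.683%. The part of these markers and shares in the changes of Ddit3, Asns and Sesn2 was not tested. None of the 9 genes had a called interaction of medium with HP against LP, where 0.0188% (CH+LIF less 2i+LIF), 0.15% (LIF less 2i+LIF) and 0.423% (LIF less CH+LIF) of all tested genes had one, and 0, 2 and 1 of the 9 had an unadjusted p under 0.05. DESeq2 gave 1 for LIF less 2i+LIF, Asns, and 127 of all genes where edgeR gave 16. Where edgeR called 0, limma-voom with sample quality weights called 1 of 9 in LIF against CH+LIF at LP, CH+LIF against 2i+LIF at HP, HP against LP in CH+LIF, both interactions with LIF and both joint tests over media, and 0 in the other comparisons. In those 7 tests it also called more of all genes than edgeR: 42 against 5, 436 against 215, 66 against 1, 160 against 16 (LIF less 2i+LIF), 914 against 45 (LIF less CH+LIF), 63 against 40 at LP and 1247 against 545 at HP.

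Against PO, 1 of 9 was called in 2i+LIF LP (5.06% of all tested genes), 3 of 9 in CH+LIF LP (8.31%), 2 of 9 in LIF LP (12%), 3 of 9 in 2i+LIF HP (10.6%), 5 of 9 in CH+LIF HP (5.82%) and 4 of 9 in LIF HP (12.3%). These 6 comparisons share the 3 PO libraries. Of the 18 calls 17 were higher than PO: 1, 3, 1, 3, 5 and 4 in the order above, where 2.79%, 4.24%, 5.84%, 5.8%, 3.36% and 7.1% of all tested genes were called higher. The median log2 fold change of the 9 genes was 0.98, 1.33, 0.50, 0.69, 1.62 and 1.19 in that order, beside -0.05, -0.06, -0.08, -0.09, -0.08 and -0.10 over all tested genes. Naive markers moved in the same comparisons: 5 of 8 were called lower than PO in at least 1 of them, beside 14% of all tested genes, among them Zfp42 (Rex1) and Tfcp2l1, and their summed level was 2990 to 3954 CPM in PO against 1397 to 3590 CPM elsewhere. Pou5f1 alone of the 8 was called higher, in 1 comparison. Of the neural ectoderm markers 3 of 4 were called higher than PO in at least 1 comparison, beside 14.4% of all tested genes. These 4 summed to 36.9 to 72.4 CPM in PO and 34.5 to 253 CPM elsewhere. Of the primed epiblast markers 1 of 3 tested was called higher and 1 lower. Among mesendoderm markers 1 of 2 tested was called higher. Summed mesendoderm markers lay below PO (15.0 to 19.9 CPM) in CH+LIF LP, LIF LP and CH+LIF HP and above it in 2i+LIF HP. Summed primed epiblast markers lay above PO (39.0 to 68.1 CPM) in CH+LIF LP and below it in LIF HP. Fibroblast markers lay below PO (14.1 to 21.4 CPM) in LIF HP. The part of these markers, and of the mitochondrial share, in the results against PO was not tested.

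**Figure D3:**
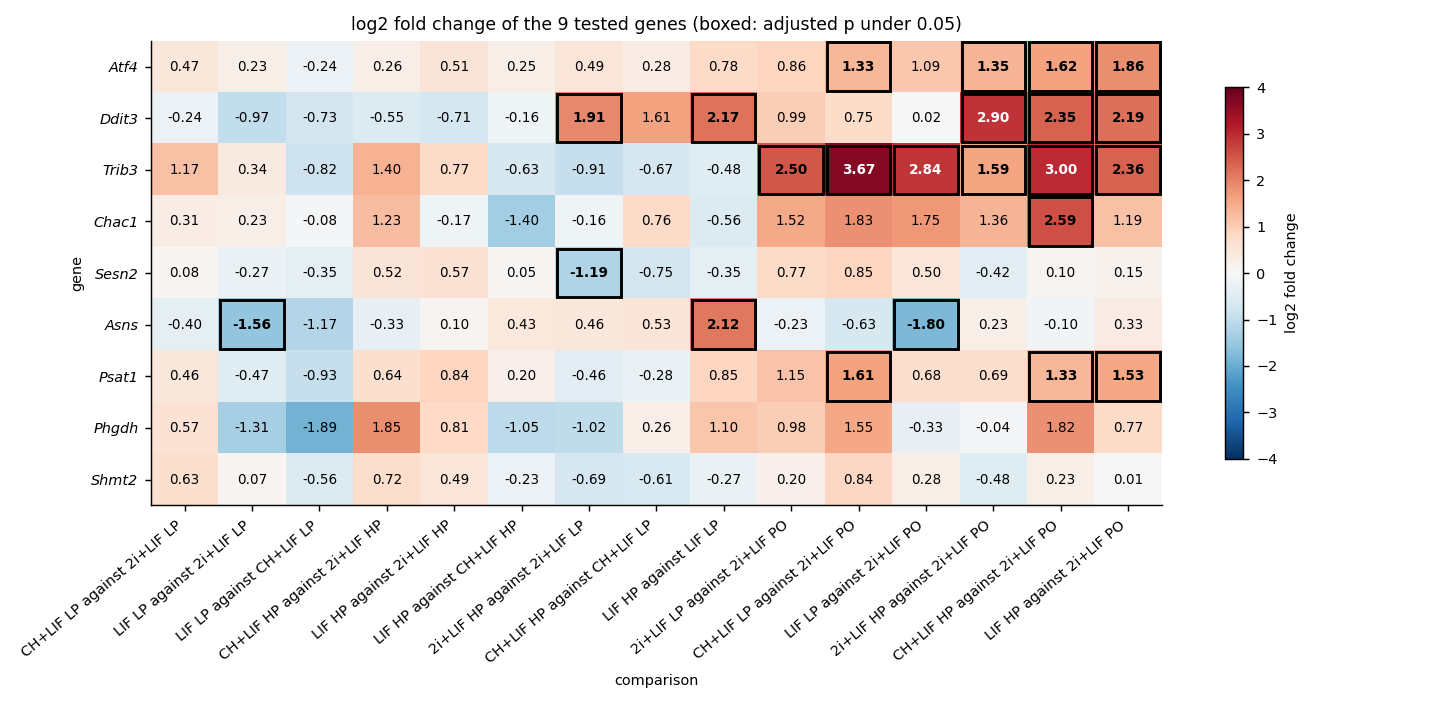
Log2 fold change (colour and number) of the 9 tested genes (vertical axis) in the 15 comparisons (horizontal axis), the first group of each name less the second. Boxes mark an adjusted p under 0.05. Of the 23 boxed values 18 lie in the 6 comparisons with PO, where Trib3 is boxed in all 6, and 5 lie in the other 9 comparisons.

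Other genes of the response were read from lists chosen by function. Of the eIF2 kinases, eIF2 alpha and the phosphatase subunits, 0 of 7 tested genes differed among the 7 groups, with 0 at an unadjusted p under 0.05. Stress factors and effectors gave 7 of 11, beside 22.6% of all tested genes. Nupr1, a small chromatin-associated stress protein, had 11.6 ± 8.61 CPM in PO, 25.6 ± 4.61 CPM in LIF LP and 141.7 ± 14.6 CPM in LIF HP (SD, n = 3). Like Ddit3 and Asns it rose from LIF LP to LIF HP, with a log2 fold change of 2.47 ± 0.45 (adjusted p = 0.00144). Atf3, a stress factor of the same family as ATF4, had 3.21 ± 2.43 CPM in LIF LP and 15.6 ± 7.39 CPM in LIF HP and rose by 2.31 ± 0.67 (adjusted p = 0.0289), and was called higher than PO in the 3 HP groups. Gdf15, a secreted stress hormone, was called higher than PO in all 6 groups, with log2 fold changes of 1.38 to 3.07, and Jdp2, a partner of AP-1 factors, in 5.

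In the list of serine, one-carbon and other amino acid enzymes 6 of 14 tested genes differed among the groups. Mthfd2, the mitochondrial folate enzyme that follows Shmt2, had 49.8 ± 25.4 CPM in PO and means of 198.5 to 354 CPM in the other groups, and rose against PO in all 6 (log2 fold change 1.98 to 2.82), whereas Shmt2 rose in none. Psph, the last enzyme of serine synthesis, rose against PO in CH+LIF LP (1.81 ± 0.47), CH+LIF HP (1.74 ± 0.47) and LIF HP (1.52 ± 0.47), the groups in which Psat1 was called. Bcat1, which starts the breakdown of branched-chain amino acids, had 112 ± 25.9 CPM in LIF LP and means of 271 to 385 CPM elsewhere. It fell in LIF LP against 2i+LIF LP (-1.55 ± 0.33, adjusted p = 0.0227) and against PO (-1.59 ± 0.33, adjusted p = 0.00276), and rose from LIF LP to LIF HP (1.32 ± 0.33, adjusted p = 0.0125), the 3 comparisons of pairs in which Asns was called. Cbs, of the path from homocysteine to cysteine, had 51.1 ± 4.41 CPM in 2i+LIF HP and was lower in LIF HP by a log2 fold change of -2.45 ± 0.58 (adjusted p = 0.0179).

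Amino acid transporters gave 5 of 10. Slc1a4, a carrier of serine and other neutral amino acids, had 1.2 ± 0.401 CPM in PO and group means of 8.38 to 29.0 CPM elsewhere, and rose against PO in all 6 groups. Slc7a3, a carrier of arginine and lysine, had 84.1 ± 18.9 CPM in CH+LIF HP but 8.69 ± 6.5 CPM in 2i+LIF HP and 13.8 ± 2.67 CPM for LIF HP. It was called lower in HP than LP in 2i+LIF (log2 fold change -2.15 ± 0.59) and in LIF (-2.51 ± 0.58), and lower in LIF HP than in CH+LIF HP (-2.61 ± 0.59, adjusted p = 0.0208). The glycine carrier Slc6a9 and the branched-chain amino acid carrier Slc43a1 had 2 counts and 1 count in the 3 PO libraries together and 8 to 71 counts in each other group, and each was called higher than PO in 5 of 6 groups. Aminoacyl-tRNA synthetases gave 1 of 13, Yars, called higher than PO in 4 groups.

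Genes of the unfolded protein response outside ATF4 gave 1 of 12. This was Herpud1, of the machinery that degrades proteins of the endoplasmic reticulum, with 12.0 ± 2.26 CPM in PO and means of 50.7 to 94.7 CPM elsewhere. NRF2 genes of oxidative defence gave 3 of 10, a share near the 22.6% of all tested genes. Gclm, of glutathione synthesis, rose against PO in all 6 groups (1.03 to 2.33), Txnrd1, a thioredoxin reductase, in both 2i+LIF groups, while Srxn1, which repairs peroxiredoxins, had 19.9 ± 5.12 CPM in 2i+LIF HP against 53.4 ± 9.59 CPM in LIF HP. Of the sestrin and leucine-sensing genes other than Sesn2, 2 of 5 differed. Castor1, an arginine sensor, was called lower than PO in 3 groups, and Ddit4l, an inhibitor of mTORC1 signalling, had means of 15.8 to 24.3 CPM in the LP groups and 2.67 to 7.64 CPM in the HP groups. In at least 1 comparison with PO, calls went both ways in 4 of these lists: 6 of 11 stress factors and effectors were called higher and 1 lower (Bbc3), 2 of 14 amino acid enzymes higher and 3 lower (Mthfd1, Got1 and Bcat1), 3 of 10 transporters higher and 2 lower (Slc7a3 and Slc38a1), and 3 of 10 NRF2 genes higher, with Hmox1 as well as Gclm in all 6 groups, and 1 lower (Keap1). Among all tested genes 14.4% were called higher and 14% lower in at least 1. As for the 9 tested genes, all values against PO share the PO libraries and their run.

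**Figure D4:**
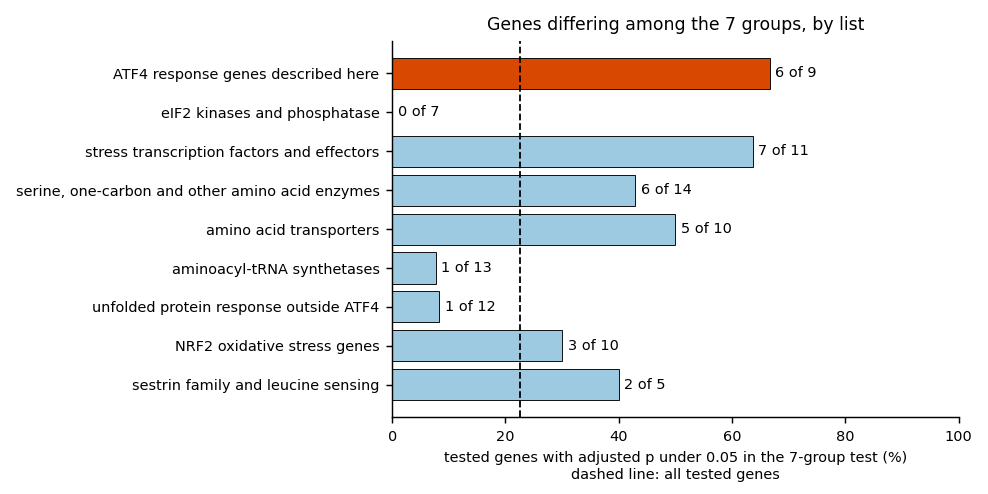
Percentage of the tested genes of each list with an adjusted p under 0.05 in the test over the 7 groups (bars, with the count of genes beside each). The dashed line marks all tested genes, 22.6%. The 9 tested genes described here give 6, stress factors and effectors 7 of 11, and the eIF2 list 0 of 7.

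**Figure D5:**
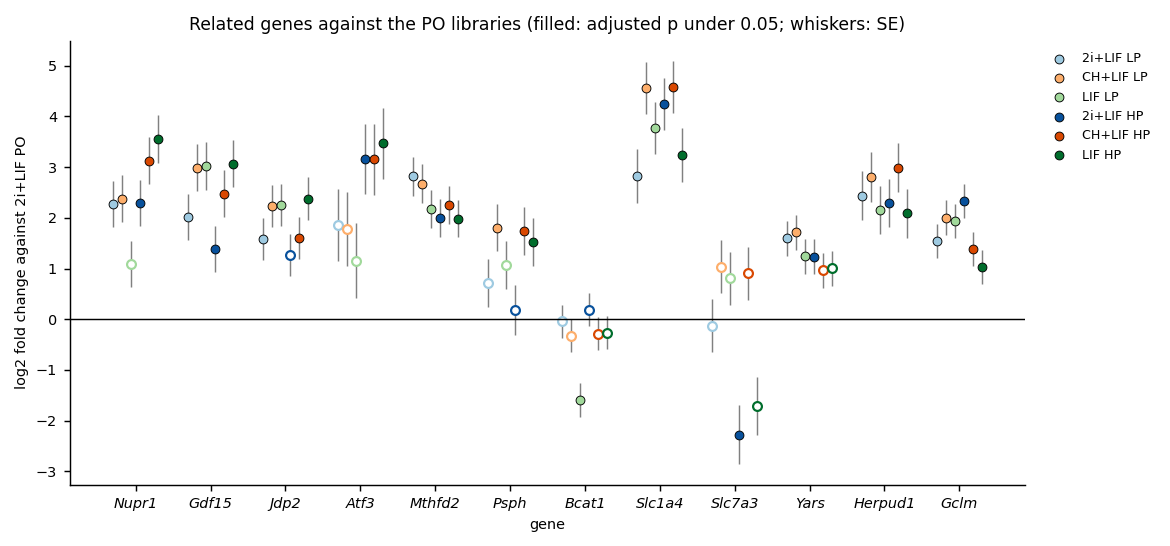
Log2 fold change against 2i+LIF PO (vertical axis) of 12 genes of these lists (horizontal axis) in the 6 other groups (colours), with SE as whiskers. Filled points have an adjusted p under 0.05. Gdf15, Mthfd2, Slc1a4, Herpud1 and Gclm are filled in all 6 groups, and Bcat1 lies below 0 at -1.59 in LIF LP.

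The 5 tested genes outside this set whose log2 CPM was most like the mean scaled level of the 9 tested genes over the 21 libraries were Psph (Pearson r = 0.883), Lsm6 (0.855), Bex4 (0.852), Stc2 (0.850) and Nupr1 (0.847). These values are a description over libraries that share groups, depth and run. Lsm6, of a complex that binds the ends of U6 and other RNAs, had 120.2 ± 87.4 CPM in PO and 444 ± 101 CPM in LIF HP. Stc2, a secreted glycoprotein, had 1.35 ± 1.37 CPM in PO and 17.5 ± 9.3 CPM in CH+LIF LP, its highest mean.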

How the data were processed

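Messenger RNA was sequenced in 21 libraries, 3 in each of 7 groups taken from the labels. The deposited tables hold whole-number counts per Ensembl gene, not normalised, for 31053 genes, followed by 5 closing entries that name no gene and were left out of library sizes and tests. Those for no gene took 8.46 to 25.8% of all entries of a library, for more than 1 gene 0.179 to 0.683% and for alignments that were not unique 20.8 to 35.4%, while 47.4 to 62% lay in genes. Per the submitters' processing notes, the authors used bcl2fastq, STAR 2.6.0a, HTSeq and the mm10 build; their settings, annotation and strand are not given in the sources used here. Gene positions came from GENCODE M21, which held 30934 of the IDs.

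The counts were fitted with edgeR 4.0.16 (R 4.3.3) by the quasi-likelihood test, TMM scaling and filterByExpr, which kept 10643 genes, in 1 fit of all 21 libraries with 14 residual degrees of freedom. Tests were two-sided, p-values were adjusted by Benjamini-Hochberg over all tested genes within a comparison, and the threshold was 0.05. The SE is the log2 fold change divided by the root of F. There were 15 comparisons of pairs of groups, 3 interactions and 3 joint tests. Log2 CPM used a prior count of 2. Alternatives were DESeq2 1.42.0, limma 3.58.1 with voom and sample quality weights, other scaling, filter, block and sample choices, and the omission of each library. Named were all 10 genes, of each other list at most the 4 genes with the lowest p called over 7 groups, and the 5 genes most like the set; single markers, neighbouring genes and Bbc3, Mthfd1, Got1, Slc38a1, Hmox1 and Keap1 were named after their values were seen. The genes, the 15 lists (126 genes) and the tests were chosen with earlier results of these data known. For 2i+LIF LP against PO, libraries of the same replicate number correlated in their deviations from the group mean (0.397, 0.345 and 0.179). In each other comparison at least 1 such value was under 0.179. Libraries of different replicate numbers were not compared, so no pairing is shown. In counts simulated for LIF HP against LIF LP, the test called 0 of 194 genes changed 2-fold (10328 genes), 99 of 197 changed 4-fold (10331 genes) and 169 of 197 changed 8-fold (10313 genes). No molecular identifiers are given, so counts are of reads.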

Additional observations from a re-analysis of the deposited data

How the results depend on the processing

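Of the 23 calls for single genes, 11 held under all 29 alternatives: Ddit3 and Asns in LIF HP against LIF LP, Trib3 in CH+LIF LP, LIF LP, CH+LIF HP and LIF HP, Asns in LIF LP, Ddit3 in the 3 HP groups and Atf4 in LIF HP, the last 9 against PO. The other 12 were lost under at least 1, for 70 of 667 values in all, and 0 reversed. With the replicate number as a block, the number of genes called was the same as without it in all 21 comparisons. Replicate numbers were not shown to pair the libraries. The following numbers of the 9 tested genes were called where an alternative other than the omission of 1 library moved the number by over 1.5 times. Parentheses give the number of all genes called, as reported and then under the alternative. With only the groups compared in the fit, 0 were called in LIF LP against 2i+LIF LP (52 to 3), 1 at HP in CH+LIF against 2i+LIF (215 to 336), 0 in 2i+LIF HP against 2i+LIF LP (391 to 52), 0, 1 and 1 in 2i+LIF LP, CH+LIF LP and 2i+LIF HP against PO (539 to 1, 884 to 420, 1127 to 328), 1 in the interaction of LIF less CH+LIF (45 to 592) and 1 among media at HP (545 to 1217). With limma-voom and sample quality weights, the tests in which edgeR called 0 and it called 1 are given above, and it called 4 in LIF HP against LIF LP (1060 to 2747) and 3, 6 and 4 in 2i+LIF LP, CH+LIF LP and LIF LP against PO (539 to 1928, 884 to 2325, 1272 to 3274). Without the 2 libraries that stood apart, 1 was called in CH+LIF HP and 1 in LIF HP against 2i+LIF HP (215 to 543, 402 to 1427), 4 in 2i+LIF HP against 2i+LIF LP (391 to 627), 4 in LIF HP against LIF LP (1060 to 2370), 2 in 2i+LIF LP against PO (539 to 1084), 2 in the interaction of LIF less 2i+LIF (16 to 167), 1 in that of LIF less CH+LIF (45 to 349), and 1 among media at LP (40 to 62) and at HP (545 to 1740). The same fit gave smaller moves, to 4, 3 and 4 in CH+LIF LP, LIF LP and 2i+LIF HP against PO (884 to 1434, 1272 to 2279, 1127 to 2150) and to 8 over the 7 groups (2406 to 3917). DESeq2 called 2 in 2i+LIF LP against PO (539 to 1030), 1 in the interaction of LIF less 2i+LIF (16 to 127) and 1 among media at LP (40 to 186). With no filter on low counts 1 was called in 2i+LIF HP against 2i+LIF LP (391 to 634) and 1 among media at LP (40 to 333). Leaving out 1 library at a time gave 0 to 1 in LIF LP against 2i+LIF LP, 0 to 1 at HP in CH+LIF against 2i+LIF (1 without 2i+LIF LP replicate 1), 0 to 2 (0 without 2i+LIF LP replicate 2 or 3 or 2i+LIF HP replicate 3) in 2i+LIF HP against 2i+LIF LP and 2 in LIF HP against LIF LP. Against PO it gave 1 to 3 in 2i+LIF LP (3 without 2i+LIF LP replicate 1), 1 to 4 in CH+LIF LP (1 without CH+LIF LP replicate 3), 2 to 4 in LIF LP (4 without 2i+LIF LP replicate 1), 1 to 3 in 2i+LIF HP (1 without PO replicate 3 or 2i+LIF HP replicate 3), 2 to 5 in CH+LIF HP (2 without PO replicate 3 or CH+LIF HP replicate 1) and 3 to 4 in LIF HP. It gave 4 to 7 over the 7 groups and 0 to 1 among media at LP (1 without PO replicate 1), and 0 in the other comparisons. The cause of these moves was not tested. Depth limits Slc7a11, Phgdh and Chac1, which had at most 7, 27 and 58 counts in a library.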
